A study of Homo sapiens with 8 samples.

Results

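The clustered replication-dependent histone genes were followed in RKO cells, a human colon carcinoma line, after treatment with 5-Aza-CdR and SRCAP siRNA. They were taken from the array annotation by name, as every probe whose gene symbol belongs to the HIST1, HIST2, HIST3 or HIST4 series of H1, H2A, H2B, H3 and H4 genes, or to the current names of those genes. This gave 71 probes of 64 genes, of 27589 probes with a symbol for 18664 genes. H2A variants encoded elsewhere in the genome, such as H2A.Z, were not included, and H3-4 was not matched by its platform symbol. By type, 6 probes were for H1, 17 for H2A, 20 for H2B, 12 for H3 and 16 for H4.

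RNA of RKO cells was hybridised to Illumina HumanWG-6 v3 arrays in 4 groups of 2 arrays. All cells had first received 100 nM siRNA, either a non-target pool (NC) or a pool against SRCAP, for 24 h, and then either 1 µM 5-Aza-CdR or PBS as the vehicle. The drug or PBS time in the labels is 72 h. RT-PCR on cells treated with the same agents had a 24 h exposure with RNA taken 72 h after treatment, and whether the arrays followed this scheme is not stated. RKO is an established line grown in culture, so each group stands for 1 cell line. Whether replicates were separate cultures is not said, and the spread behind every p-value may therefore be technical. Replicates 1 and 2 of all groups lay on slides 1 and 2.

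Histone genes of the clusters encode the bulk of the histones that package newly copied DNA. They are transcribed mainly in S phase, have no introns, and most of their messages end in a conserved stem-loop bound by SLBP in place of a poly(A) tail. H2A, H2B, H3 and H4 form the nucleosome core and H1 binds the linker DNA between nucleosomes, and many H2A and H2B genes face away from each other across a shared promoter. A few of the clustered genes can also give polyadenylated transcripts, a property described for cells that leave the cycle. 5-Aza-CdR is a cytosine analogue that traps DNA methyltransferases during replication, and SRCAP is the ATPase of a complex that exchanges H2A for H2A.Z. The labels name only the manufacturer's labelling protocol, so how far messages without a poly(A) tail were copied is not known.

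Promoters are shown for pairs of genes facing away from each other, both measured, in which 1 was called higher after 5-Aza-CdR with NC siRNA. The call is that of the fit without a slide block. The promoter of an H4 gene is shown as well. The windows are 300 bases long, lie mostly before the RefSeq start (GRCh38.p14) and run a little past it. The tables hold them for 59 of the 64 genes. Capitals mark motif matches on either strand, run together where they overlap. The motifs were the octamer ATTTGCAT, known from H2B promoters, the CCAAT box, the TATA box TATAAA, the H4 element GGTCCG and the H1 box AAACACA. The H2AC6 window (chr6:26123922-26124221, plus strand) also covers the start of H2BC4, the H2AC11 window (chr6:27132793-27133092, plus strand) that of H2BC11 and the H2BC21 window (chr1:149886633-149886932, minus strand) that of H2AC20. H4C8 (chr6:26285485-26285784, minus strand) has no such neighbour among the measured pairs.
H2AC6: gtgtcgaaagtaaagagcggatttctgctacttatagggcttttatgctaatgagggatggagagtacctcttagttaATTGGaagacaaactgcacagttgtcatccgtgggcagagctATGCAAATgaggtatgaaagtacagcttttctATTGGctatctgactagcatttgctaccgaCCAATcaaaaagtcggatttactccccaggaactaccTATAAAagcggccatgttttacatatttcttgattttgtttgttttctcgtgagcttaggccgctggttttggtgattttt
H2AC11: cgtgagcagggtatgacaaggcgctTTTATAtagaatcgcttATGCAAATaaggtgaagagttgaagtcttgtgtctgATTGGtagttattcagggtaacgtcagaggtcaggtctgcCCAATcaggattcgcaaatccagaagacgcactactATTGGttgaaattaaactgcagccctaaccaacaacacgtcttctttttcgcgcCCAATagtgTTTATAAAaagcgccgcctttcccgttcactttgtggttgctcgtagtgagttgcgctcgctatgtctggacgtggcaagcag
H2BC21: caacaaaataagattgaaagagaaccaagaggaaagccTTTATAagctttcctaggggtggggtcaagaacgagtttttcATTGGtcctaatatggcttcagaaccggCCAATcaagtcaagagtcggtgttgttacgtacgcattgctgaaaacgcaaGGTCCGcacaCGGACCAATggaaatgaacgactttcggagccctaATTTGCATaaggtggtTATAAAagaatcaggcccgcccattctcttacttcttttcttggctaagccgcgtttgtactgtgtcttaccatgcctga
H4C8: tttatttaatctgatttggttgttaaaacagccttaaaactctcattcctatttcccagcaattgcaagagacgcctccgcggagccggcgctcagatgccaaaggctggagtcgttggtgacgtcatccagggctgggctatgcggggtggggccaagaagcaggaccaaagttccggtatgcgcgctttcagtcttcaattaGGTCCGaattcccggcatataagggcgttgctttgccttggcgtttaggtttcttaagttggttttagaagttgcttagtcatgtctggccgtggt
H2AC6 held 1 octamer, 3 CCAAT boxes and 1 TATA box. H2AC11 held 1 octamer, 4 CCAAT boxes and 3 TATA boxes. H2BC21 held 1 octamer, 3 CCAAT boxes, 2 TATA boxes and 2 copies of the H4 element, and the H4C8 window held 1 H4 element and none of the other 4 motifs.

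The motifs followed the histone type. The octamer lay in 77.8% of H2B and 71.4% of H2A windows, against 2.19% of 27305 gene promoters. It lay in 11.1% of H3 windows, through H3C4 alone, whose window is that of H2AC7, and in no H1 or H4 window. The H4 element lay in 91.7% of H4 windows (13.4% of all promoters), the H1 box in 100% of H1 windows (6.94% of all), the CCAAT box in 84.7% of the 59 windows (39.7% of all) and the TATA box in 67.8% (14% of all). They did not set apart the genes that responded: among measured genes with a window, the octamer lay in 50% of the 8 genes called higher after 5-Aza-CdR with NC siRNA and in 48.1% of the 27 not called, the CCAAT box in 87.5% and 85.2%, and the TATA box in 75% and 66.7%. The median number of CpG sites in a window was 11 in the former and 12 in the latter, and 14 over all promoters. These matches are descriptions of letters and show no binding.

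Of the 71 probes, 39 were detected (detection p under 0.01) on at least 2 arrays and entered the tests, 6 were detected on 1 array and 26 (36.6%) on none, against 54.6% on none among all probes. The 39 probes covered 36 single genes and 1 probe (ILMN_1881081) that the annotation assigns to both H3C11 and H3C6, written here as H3C11 or H3C6. A single-gene H3C11 probe was detected on 1 array. Measured were 1 of 6 H1 probes, 10 of 17 H2A, 14 of 20 H2B, 8 of 12 H3 and 6 of 16 H4 probes, and 28 probes were detected on all 8 arrays. Probes that passed only through the group in which they are high had to differ, so no count over the 39 probes stands for all 64 genes. Genes of 1 type are close copies in their coding parts, so probes may share targets. H2AC18, H3C14 and H4C14 each have a near-identical copy in the HIST2 cluster (H2AC19, H3C15 and H4C15), and their signals cannot be assigned to 1 copy.

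As facts of the whole series, 36.6% to 40.5% of probes were detected per array. The SRCAP probe read 7.19 and 7.07 with NC siRNA and PBS, 6.83 and 7.16 with NC siRNA and 5-Aza-CdR, 6.58 and 6.58 with SRCAP siRNA and PBS, and 6.73 and 6.46 with SRCAP siRNA and 5-Aza-CdR. The SRCAP siRNA arrays lay below the NC arrays, by 0.47 on average, which was not called (limma, adjusted p = 0.172). Of 12 colon epithelial markers 7 were detected on no array, CDH1, VIL1 and CDX1 among them, while CDX2 and EPCAM were detected on all. Fibroblast markers summed to 3874 to 4990 signal units with NC siRNA and PBS and 39900 to 42760 with NC siRNA and 5-Aza-CdR, and to 3085 to 4296 and 56800 to 56820 with SRCAP siRNA, through VIM and ACTA2, while 7 of 10 were on no array (DCN, LUM and COL3A1 among them). HBA1, CORO1A and CD14, 3 of 7 measured blood cell markers, were called higher with NC siRNA and the drug. Of the blood cell markers 4 of 11 (PTPRC, CD3E, CD3D and HBB) and of the endothelial markers 5 of 6 were on no array, with sums between 78580 and 94920 and between 253.8 and 310 over all groups. The part of other cell types in the histone values was not tested.

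The effect of 5-Aza-CdR on the clustered histone genes was asked first in cells with NC siRNA. A set of H2A, H2B, H3 and H4 genes rose, by 2.15-fold to 3.41-fold and, for 1 probe, by at least 3.71-fold. The genes were H2AC6, H2AC11, H2BC5, H2BC12, H2BC21, H3C8, H3C10, H4C8 and the probe for H3C11 or H3C6. Over alternative settings the log2 change ran from 0.76 to 2.55 for the H3C11 or H3C6 probe and from 0.53 to 1.28 for H3C10. The folds, the bound included, thus hold for the fit used here. The called probes made up 9 of 39 measured probes (23.1%), against 2.66% of all 20328 probes tested that were called higher in this comparison (limma, adjusted p under 0.05, Benjamini-Hochberg over all probes). None was called lower, against 0.0541% of all probes. At an unadjusted p under 0.05 there were 21 higher and 0 lower (53.8%, against 8.16% of all in either direction). Of the 21, H2BC6 was detected only on drug arrays (1 with NC siRNA and 2 with SRCAP siRNA), so its direction was favoured by the filter and is no support. The median log2 change of the 39 probes was 0.61, beside -0.06 for all probes, and 30 of 39 were above 0, beside 41.3% of all. In such bulk RNA, more cells making a transcript and more of it per cell cannot be told apart. Values below are normalized log2 signals of replicates 1 and 2, and changes are log2 differences ± SE with n = 2 arrays per group. Called probes were picked for this change, so arrays that do not overlap are no further support. With NC siRNA, uncalled probes such as H1-2 and H3C4 did not overlap either.

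In the cells with SRCAP siRNA the drug raised 7 of 39 probes (17.9%, against 1.86% of all), and none was called lower (0.0295% of all). The 7 raised were among the 9 above. At an unadjusted p under 0.05, 13 were higher and 4 lower (together 43.6%, against 7.78% of all). Of the 4, H2BC13 was detected only on the 2 SRCAP siRNA PBS arrays, so it had to be lower. H3C8 and H3C10 were not called. The median change was 0.20, beside -0.03 for all probes. Averaged over both siRNAs, 9 probes were called higher, against 3.39% of all, and none lower, against 0.295% of all. At an unadjusted p under 0.05, 20 were higher and 4, H2BC13 again among them, lower (together 61.5%, against 11.5% of all). The 20 included H2BC6, which was detected only on drug arrays, so it had to be higher.

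**Figure D1:**
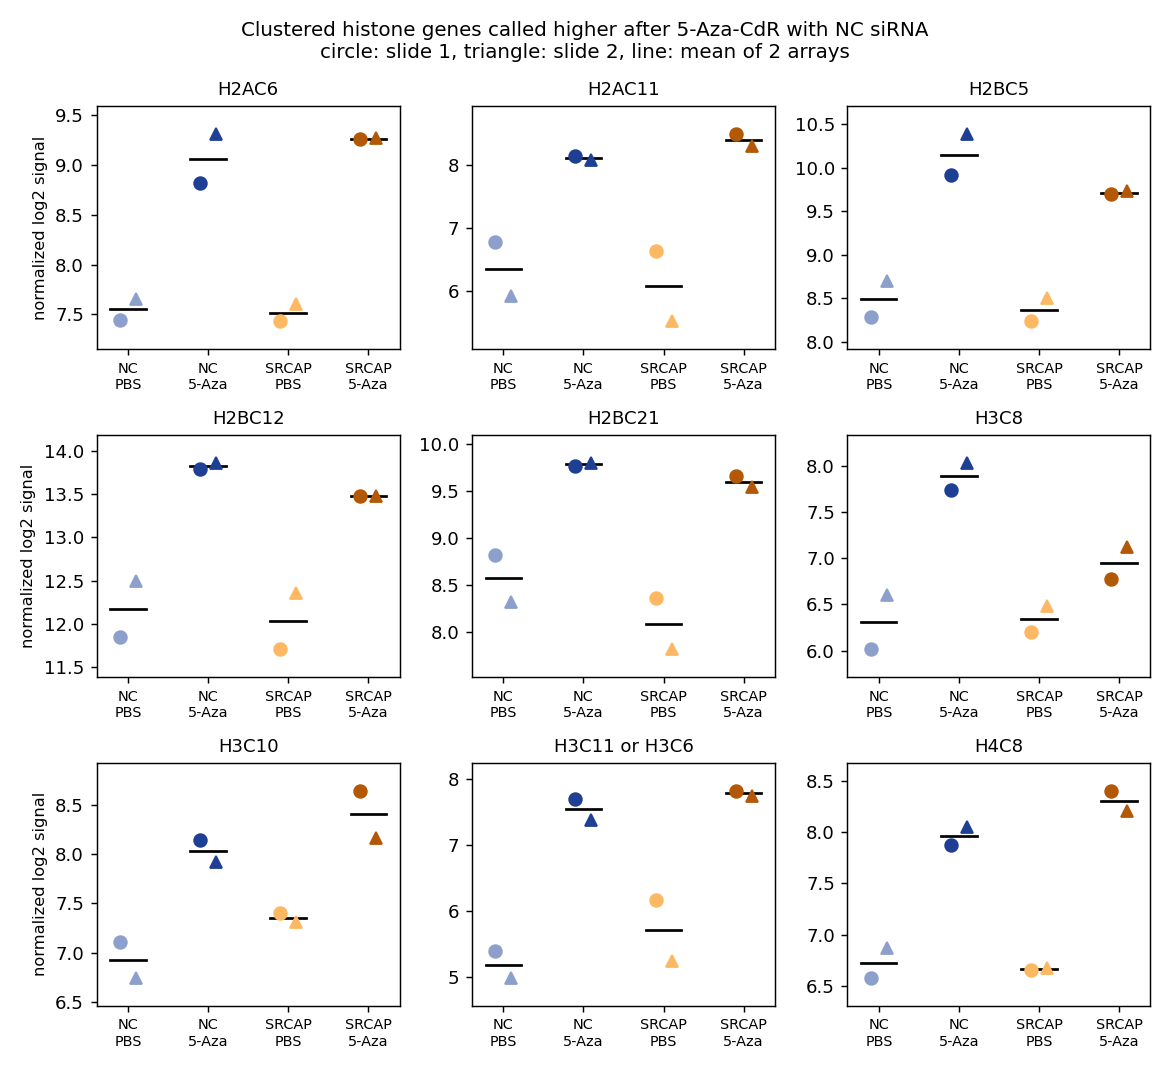
Normalized log2 signal (vertical axes, separate scale per gene) of the 9 histone probes called higher after 5-Aza-CdR with NC siRNA, in the 4 groups. Circles are slide 1, triangles slide 2 and lines the mean of 2 arrays. In each panel both NC 5-Aza-CdR arrays lie above both NC PBS arrays, which this selection favours. In the H3C8 panel the SRCAP 5-Aza-CdR arrays (6.77 and 7.12) lie below the NC 5-Aza-CdR arrays (7.74 and 8.03).

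H1, the linker histone, was represented by 1 measured gene, H1-2. H1-2 (ILMN_1757406), one of the H1 subtypes found in most cells, read 9.91 and 10.25 with NC siRNA and PBS, 10.94 and 10.68 after 5-Aza-CdR, 9.48 and 10.26 with SRCAP siRNA and PBS, and 10.31 and 10.18 with SRCAP siRNA and 5-Aza-CdR. The NC groups did not overlap and the SRCAP siRNA groups did. The change was 0.73 ± 0.28 with NC siRNA (adjusted p = 0.476) and 0.38 ± 0.28 with SRCAP siRNA (adjusted p = 0.895), and neither was called. Without SRCAP siRNA PBS replicate 1 the latter became -0.009. Of the other H1 probes, H1-1 was detected on 1 array and H1-3, H1-4, H1-5 and the testis gene H1-6 on none.

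H2A genes rose at H2AC6 and H2AC11. H2AC6 (ILMN_1792689) read 7.45 and 7.66 with NC siRNA and PBS and 8.82 and 9.31 after the drug, and with SRCAP siRNA 7.43 and 7.60 under PBS and 9.26 and 9.27 after the drug. All 4 drug arrays lay above all 4 PBS arrays. The change was 1.51 ± 0.23 with NC siRNA (2.85-fold, adjusted p = 0.00463) and 1.74 ± 0.23 with SRCAP siRNA (3.35-fold, adjusted p = 0.00233). H2AC6 can give polyadenylated transcripts.

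H2AC11 (ILMN_1686478) read 6.77 and 5.92 with NC siRNA and PBS and 8.14 and 8.08 after the drug, and with SRCAP siRNA 6.63 and 5.51 under PBS and 8.49 and 8.30 after the drug. The PBS arrays differed between slides by more than the drug arrays did, and no drug array overlapped them. The change was 1.77 ± 0.38 (3.41-fold, adjusted p = 0.0349) with NC siRNA and 2.32 ± 0.38 (5.01-fold, adjusted p = 0.00824) with SRCAP siRNA. H2AC11 was not detected on 1 of the SRCAP siRNA PBS arrays, and a further H2AC11 probe (ILMN_2184602) was detected on no array. The call with NC siRNA held in 5 of 14 alternative settings, with adjusted p from 0.00107 to 0.169.

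The other 8 H2A probes were not called, and 3 of them turned on the slide. H2AC18 (ILMN_1659047) read 9.48 and 10.65 with NC siRNA and PBS and 11.42 and 12.06 after the drug, and with SRCAP siRNA 9.02 and 10.21 under PBS and 10.16 and 10.82 after it. Slide 2 read above slide 1 in every group, by 0.63 to 1.19, and the NC siRNA groups did not overlap. Its change with NC siRNA was 1.67 ± 0.47 (adjusted p = 0.16), and with the slide as a block 1.67 ± 0.22 (adjusted p = 0.000396). The same block called its second probe (ILMN_2144426, 1.44 ± 0.24, adjusted p = 0.00218) and H2AC20 (ILMN_1768973, 0.97 ± 0.22, adjusted p = 0.029). With SRCAP siRNA the changes were 0.88, 0.88 and -0.30, and none was called in either fit. H2AC20 is the H2A gene that shares a promoter with H2BC21.

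Among the remaining H2A genes no difference was called. H2AC4, H2AC8, H2AC13 and H2AC17 of HIST1 and H2AC25 of HIST3 gave values between -0.48 (H2AC4) and 0.56 (H2AC8) with NC siRNA and between -0.19 (H2AC4) and 0.20 (H2AC25) with SRCAP siRNA. H2AC4 was detected on only the 2 NC siRNA PBS arrays.

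H2B genes rose at H2BC5, H2BC12 and H2BC21, which are among the clustered genes able to give polyadenylated transcripts. H2BC5 (ILMN_1651496) read 8.29 and 8.69 with NC siRNA and PBS and 9.91 and 10.38 after the drug, and with SRCAP siRNA 8.24 and 8.50 under PBS and 9.69 and 9.73 after it. No drug array overlapped a PBS array. The change was 1.66 ± 0.25 (3.15-fold, adjusted p = 0.00384) with NC siRNA and 1.34 ± 0.25 (2.54-fold, adjusted p = 0.021) with SRCAP siRNA. A second H2BC5 probe (ILMN_1758623) gave 0.94 ± 0.32 and 0.90 ± 0.32 (adjusted p = 0.324 and 0.419; 0.0392 and 0.0616 with the slide as a block), and another (ILMN_1777405) was detected on no array.

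H2BC12 (ILMN_1796179) read 11.85 and 12.49 with NC siRNA and PBS and 13.80 and 13.87 after the drug, and with SRCAP siRNA 11.70 and 12.36 under PBS and 13.49 and 13.48 after it. The drug arrays lay above the PBS arrays with either siRNA. The change was 1.66 ± 0.29 (3.16-fold, adjusted p = 0.00935) with NC siRNA and 1.45 ± 0.29 (2.74-fold, adjusted p = 0.0299) with SRCAP siRNA. H2BC21 (ILMN_1732071), of the HIST2 cluster, read 8.82 and 8.32 with NC siRNA and PBS and 9.77 and 9.80 after the drug, and with SRCAP siRNA 8.36 and 7.82 under PBS and 9.66 and 9.54 after it. Again no drug array overlapped a PBS array. The change was 1.21 ± 0.26 (2.31-fold, adjusted p = 0.0371) and 1.51 ± 0.26 (2.85-fold, adjusted p = 0.0129). The H2BC21 call with NC siRNA held in 6 of 15 alternative settings, with adjusted p from 0.00519 to 0.219.

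The other 10 measured H2B probes beside these and the second H2BC5 probe were not called. With NC siRNA they ran from -0.26 (H2BC9) to 0.82 (H2BC4), and with SRCAP siRNA from -1.15 (H2BC9) to 0.68 (H2BC8). H2BC9 (ILMN_1688666) read 8.83 and 9.97 with SRCAP siRNA and PBS and 8.05 and 8.45 after the drug, a difference of -1.15 ± 0.37 that was called only with the slide as a block (adjusted p = 0.316, and 0.0391 blocked). With NC siRNA its arrays overlapped (8.60 and 9.29, then 8.75 and 8.64).

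H3 genes rose at H3C8, H3C10 and the probe for H3C11 or H3C6. H3C11 or H3C6 (ILMN_1881081) read 5.39 and 4.99 with NC siRNA and PBS, where it was not detected, and 7.70 and 7.38 after the drug. With SRCAP siRNA it read 6.17 and 5.24 under PBS, detected on 1 of these arrays, and 7.82 and 7.74 after the drug. No drug array overlapped a PBS array. The change was 2.35 ± 0.31 with NC siRNA (at least 3.71-fold, set against the lowest detected signal of each undetected array, adjusted p = 0.00151) and 2.08 ± 0.31 with SRCAP siRNA (4.21-fold, adjusted p = 0.00504). Over 14 alternative settings the change with NC siRNA ran from 0.76 to 2.55, so the bound holds for the fit used here.

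H3C8 (ILMN_1726815) read 6.01 and 6.61 with NC siRNA and PBS and 7.74 and 8.03 after the drug, and with SRCAP siRNA 6.21 and 6.48 under PBS and 6.77 and 7.12 after it. The SRCAP siRNA drug arrays lay between the PBS arrays and the NC drug arrays. The change was 1.58 ± 0.27 (2.99-fold, adjusted p = 0.00814) with NC siRNA and 0.60 ± 0.27 (1.52-fold, adjusted p = 0.634) with SRCAP siRNA. Tested as such, the difference between these 2 effects was -0.98 ± 0.38 (adjusted p = 0.999, unadjusted p = 0.0274) and was not called.

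H3C10 (ILMN_1749368) read 7.11 and 6.75 with NC siRNA and PBS and 8.14 and 7.92 after the drug, and with SRCAP siRNA 7.41 and 7.31 under PBS and 8.64 and 8.16 after it. The drug arrays lay above the PBS arrays with either siRNA. The change was 1.10 ± 0.25 (2.15-fold, adjusted p = 0.0461) with NC siRNA and 1.04 ± 0.25 (2.06-fold, adjusted p = 0.0835; 0.0124 with the block) with SRCAP siRNA. The call with NC siRNA held in 1 of 15 alternative settings, with adjusted p from 0.00609 to 0.246. The other 5 H3 probes ran from -0.20 (H3C3) to 0.67 (H3C7) with NC siRNA, and of these H3C7 was called with SRCAP siRNA once the slide was a block (0.94 ± 0.21, adjusted p = 0.027).

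H4C8 was called higher with each siRNA, and the other 5 measured H4 genes were not called in the fit without a slide block. H4C8 (ILMN_1751120) read 6.58 and 6.87 with NC siRNA and PBS and 7.87 and 8.05 after the drug, and with SRCAP siRNA 6.66 and 6.67 under PBS and 8.40 and 8.21 after it. No drug array overlapped a PBS array. The change was 1.23 ± 0.22 (2.35-fold, adjusted p = 0.0107) and 1.64 ± 0.22 (3.11-fold, adjusted p = 0.00217). A second H4C8 probe (ILMN_1853899) was detected on 1 array.

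H4C14 (ILMN_2115340), a HIST2 gene, read 7.47 and 7.97 with NC siRNA and PBS and 8.28 and 8.61 after the drug, and with SRCAP siRNA 6.67 and 7.31 under PBS and 7.63 and 7.61 after it. The groups did not overlap with either siRNA. The changes were 0.73 ± 0.28 and 0.63 ± 0.28, and neither was called (adjusted p = 0.474 and 0.628). Their average, 0.68, was called with the slide as a block (adjusted p = 0.0208, and 0.131 without).

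H4C3, H4C11 and H4C12 had values below 0 for the drug with SRCAP siRNA, and H4C3 was called lower with the slide as a block. H4C3 (ILMN_2075334) read 14.58 and 15.37 with NC siRNA and PBS and 14.36 and 14.82 after the drug, and with SRCAP siRNA 14.59 and 15.17 under PBS and 13.01 and 14.01 after it. The SRCAP siRNA drug arrays lay below all 6 others. The change was -0.38 ± 0.39 with NC siRNA and -1.37 ± 0.39 with SRCAP siRNA (adjusted p = 0.191; 0.00206 with the slide as a block). H4C11 (-0.98 ± 0.39) and H4C12 (-0.80 ± 0.46) were called in neither fit with SRCAP siRNA. Averaged over both siRNAs and with the block, H4C3 (-0.88, adjusted p = 0.00271) and H4C11 (-0.68, adjusted p = 0.0393) were lower. H4C5 gave 0.44 and -0.06.

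**Figure D2:**
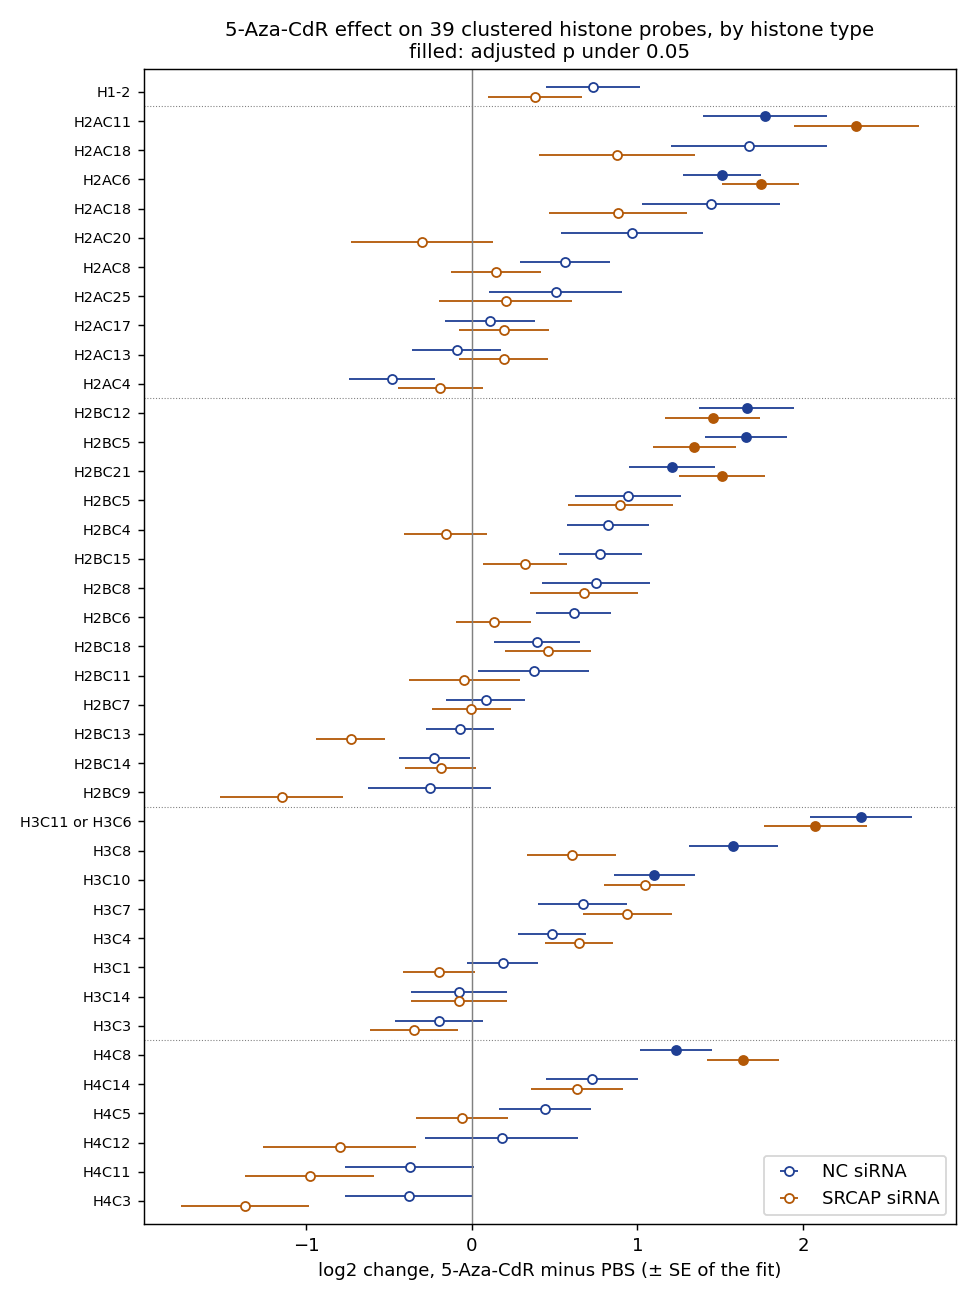
Log2 change after 5-Aza-CdR (horizontal axis, bars ± SE of the fit) for the 39 measured probes, grouped by histone type, with NC siRNA in blue and SRCAP siRNA in brown. Filled points had an adjusted p under 0.05, which was 9 probes with NC siRNA and 7 with SRCAP siRNA, all to the right of 0.

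Set side by side by type, 2 of 10 H2A probes, 3 of 14 H2B, 3 of 8 H3 and 1 of 6 H4 probes were called higher with NC siRNA, and 0 of 1 for H1. With SRCAP siRNA the counts were 2, 3, 1 and 1. The median changes with NC siRNA were 0.76 for H2A, 0.68 for H2B, 0.58 for H3 and 0.31 for H4, and with SRCAP siRNA 0.20, 0.23, 0.62 and -0.43. The H4 median had opposite signs with the 2 siRNAs, and within each type single genes differed more than the type medians did. Differences between types were not tested.

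With the slide as a block, which the labels give as the chip of each replicate, 13 of 39 probes were called higher with NC siRNA (33.3%, against 3.21% of all). With SRCAP siRNA 9 were called higher (2.49% of all) and 2, H2BC9 and H4C3, lower (0.271% of all). Slide differences of the SRCAP siRNA PBS and drug arrays correlated at 0.00347 over all kept probes, so they showed no shared slide effect. The 4 further probes with NC siRNA were both H2AC18 probes, H2AC20 and the second H2BC5 probe, and the 2 further with SRCAP siRNA were H3C7 and H3C10. For the average of both siRNAs the block gave 16 higher (4.34% of all) and 2 lower (1.09% of all). The 7 higher beyond the 9 above were both H2AC18 probes, the second H2BC5 probe, H2BC8, H3C4, H3C7 and H4C14, and the lower ones were H4C3 and H4C11.

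By position, the genes lie in HIST1 on chromosome 6, in HIST2 and HIST3 on chromosome 1 and in HIST4 on chromosome 12. HIST1 gave 31 measured probes and 8 calls with NC siRNA (6 with SRCAP siRNA), HIST2 gave 7 probes and 1 call (1), HIST3 gave 1 probe (H2AC25) and no call, and the HIST4 probe, H4C16, was detected on no array. The median change was 0.56 for HIST1 and 0.97 for HIST2 with NC siRNA, and 0.19 and 0.63 with SRCAP siRNA. With the slide as a block, 9 HIST1 and 4 HIST2 probes were called higher with NC siRNA. With SRCAP siRNA the block gave 8 and 1 higher, and 2 HIST1 probes lower. Differences between clusters were not tested. In RefSeq the HIST1 genes fall into 3 stretches separated by more than 400 kb. The first, with 43 of the genes, gave 4 calls of 19 measured probes with NC siRNA (H2AC6, H2BC5, H3C8 and H4C8), the second, with 5 genes, gave 2 of 3 (H2AC11 and H2BC12), and the third, with 18 genes, gave 1 of 8 (H3C10). The median changes were 0.61, 1.66 and 0.02. With SRCAP siRNA the calls were 3, 2 and 0 and the medians 0.15, 1.45 and 0.00. The H3C11 or H3C6 probe belongs to either the first or the third stretch and was left out of these counts.

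**Figure D3:**
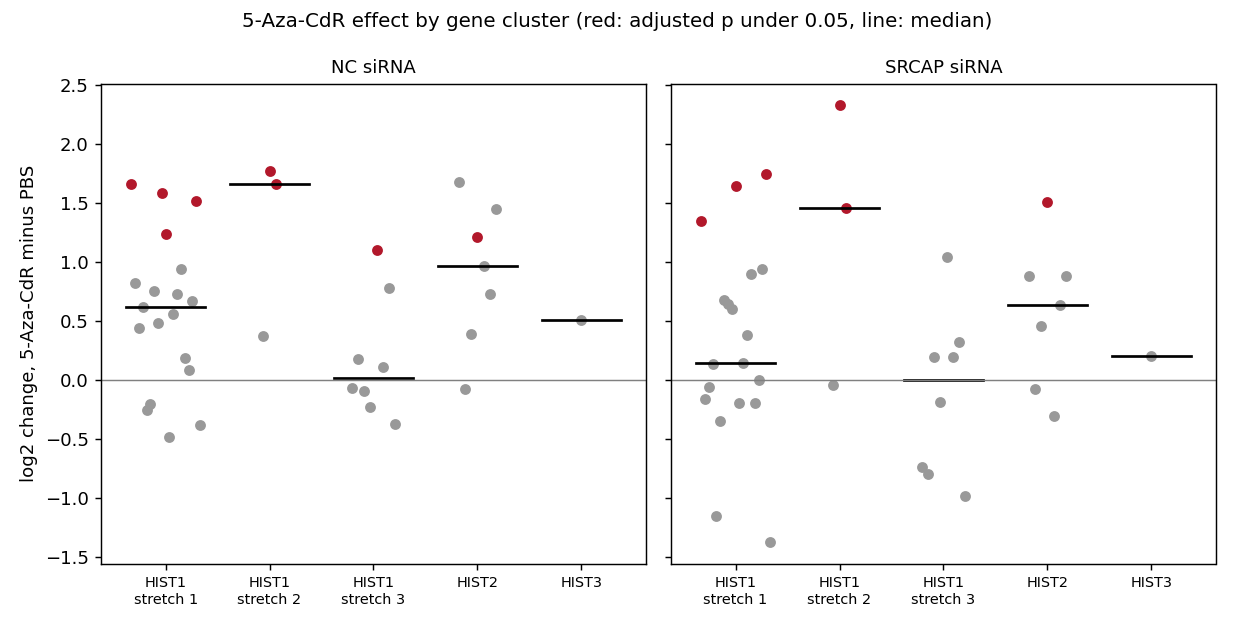
Log2 change after 5-Aza-CdR (vertical axis) of measured probes by gene cluster and HIST1 stretch (horizontal axis), with NC siRNA on the left and SRCAP siRNA on the right. Red points had an adjusted p under 0.05, black lines are medians, and the third HIST1 stretch has a median of 0.02 on the left and 0.00 on the right.

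Among genes that face away from each other across 1 promoter, no pair had both genes called without a slide block, and 1 had with it. Among the genes with a promoter window, RefSeq holds 13 such pairs with starts within 1000 bases of each other. H2AC12, which lies next to the called gene H2BC12, had no window and was detected on no array. H2BC12 is therefore in none of the 13. H2AC7 with H2BC7 and H3C4 with H2BC7 have the same starts, so this promoter is counted more than once. In 7 both genes were measured, and in 3 of these 1 gene was called higher with NC siRNA, in 0 both and in 4 neither. H2AC6 rose by 1.51 while H2BC4 gave 0.82 ± 0.25 (adjusted p = 0.211). H2AC11 rose by 1.77 while H2BC11 gave 0.37 ± 0.34 (adjusted p = 0.952), and H2BC21 rose by 1.21 while H2AC20 gave 0.97 ± 0.43 (adjusted p = 0.601). With the slide as a block both H2BC21 (adjusted p = 0.00519) and H2AC20 (adjusted p = 0.029) were called higher. With SRCAP siRNA the called gene and its partner gave 1.74 and -0.16, 2.32 and -0.05, and 1.51 and -0.30. Whether partners differ was not tested. The 2 genes of each pair share the windows printed above, and the called gene was H2A in 2 pairs and H2B in the third.

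H1-2, H2AC6, H2BC5, H2BC12 and H2BC21, known to give polyadenylated transcripts, were all measured. With NC siRNA 4 of these 5 were called higher with a median change of 1.51, and with SRCAP siRNA 4 of 5 with a median of 1.45, beside 9 and 7 of all 39 histone probes. The list was drawn up with earlier results of these data known and is no independent evidence. It may be incomplete. H2BC4 and H2BC18, which like H2BC5 and H2BC12 have long gene spans in RefSeq, are not on it. Neither was called with NC siRNA (0.82 and 0.39, adjusted p = 0.211 and 0.868). H2AC11, H3C8, H3C10, H4C8 and the H3C11 or H3C6 probe, which were called, are not on the list either.

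The effect of SRCAP siRNA itself was asked under PBS and under the drug, on the same 8 arrays as the drug effects. Without the slide block no clustered histone probe was called under PBS (0.00984% of all probes), under 5-Aza-CdR (0.305% of all) or on average (0.989% of all). At an unadjusted p under 0.05 (limma) there were 6 under PBS, 6 under the drug, all lower, and 11 on average. These are 15.4%, 15.4% and 28.2% of the 39, beside 6.76%, 13.2% and 18.4% of all probes. Of the 6 under PBS, H2AC4 and H2BC13 were each detected only on the 2 arrays of the group where they are high. H2BC6 was detected on no PBS array. The share under PBS therefore rests partly on probes that had to differ or were undetected. With the slide as a block 7 of 39 (17.9%, against 4.1% of all) were lower with SRCAP siRNA under 5-Aza-CdR, and none was called under PBS. On average 5 were lower (6.06% of all) and 1, H2BC4, higher (4.25% of all). Over all kept probes, slide differences of the NC and the SRCAP siRNA drug arrays correlated at 0.013. A slide effect shared by the groups behind the 7 calls was thus not seen over all probes. Of the cell type markers CORO1A was lower with SRCAP siRNA on average (-1.01, adjusted p = 0.0227), and with the block also EPCAM (-0.77, adjusted p = 0.0111) and HBA1 (-0.76, adjusted p = 0.00747), and their part in the histone values was not tested.

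The 7 probes lower under the drug were both for H2AC18 and those for H2AC20, H4C14, H3C8, H4C12 and H4C3, and 4 of the 7 are HIST2 probes. In each, both NC drug arrays lay above both SRCAP siRNA drug arrays. The 7 were picked for this difference, so the order of their arrays is no further support. Probes not called, such as H1-2 and H2AC17, showed the same order. H2AC20 read 11.50 and 12.07 with NC siRNA and the drug and 10.16 and 10.68 with SRCAP siRNA and the drug, which is -1.34 on slide 1 and -1.39 on slide 2 (-1.36 ± 0.22, adjusted p = 0.00631 with the block, 0.245 without). Under PBS it read 10.29 and 11.35, and 10.19 and 11.25, a difference of -0.10 ± 0.43.

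H2AC18 differed under the drug by -1.25 ± 0.22 (ILMN_1659047, adjusted p = 0.00941 with the block, 0.322 without) and -1.43 ± 0.24 (ILMN_2144426, adjusted p = 0.0068 and 0.22), and the 2 slides gave -1.26 and -1.24, and -1.43 and -1.44. Under PBS the differences were -0.45 and -0.87 and were not called. H4C3 differed by -1.08 ± 0.21 (adjusted p = 0.0142 and 0.3), H4C12 by -0.95 ± 0.22 (0.031 and 0.407), H3C8 by -0.94 ± 0.20 (0.0207 and 0.206) and H4C14, just under the threshold, by -0.82 ± 0.22 (0.05 and 0.284), with the unblocked adjusted p second. H4C12 (ILMN_1662359) read 9.40 and 9.85 with NC siRNA and the drug and 8.22 and 9.13 with SRCAP siRNA and the drug. All 7, picked for this difference, were lower on both slides. For H4C14 the difference under PBS was -0.73 ± 0.28 (adjusted p = 0.653).

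**Figure D4:**
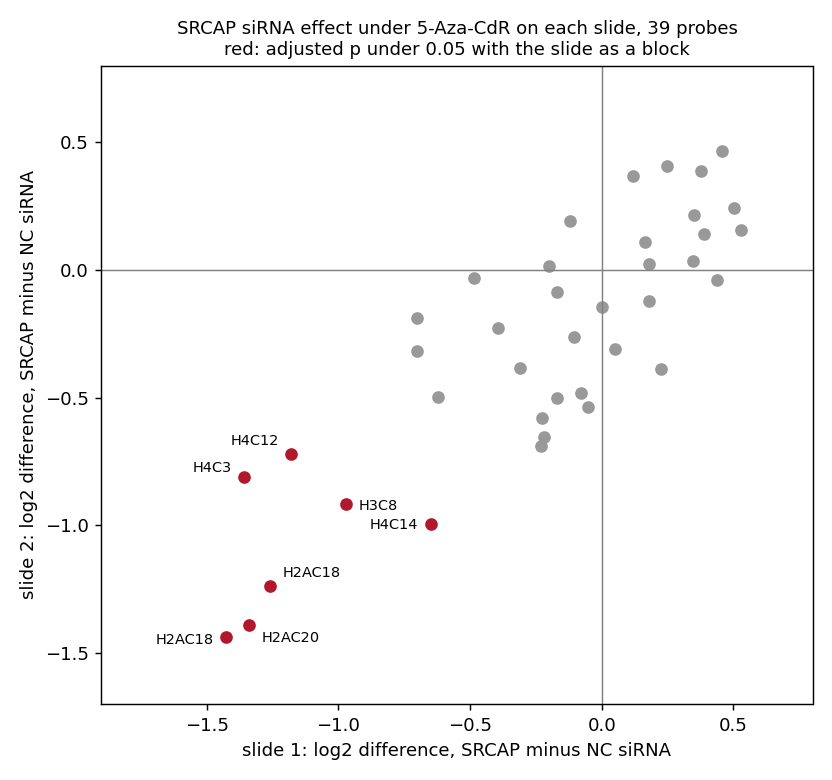
Log2 difference between SRCAP and NC siRNA under 5-Aza-CdR on slide 1 (horizontal axis) and on slide 2 (vertical axis) for the 39 measured probes. Red points are the 7 probes called lower with the slide as a block, with H2AC18 (ILMN_2144426) at -1.43 and -1.44. All 7 lie below 0 on both slides, which this selection favours.

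H2BC4 (ILMN_1680937), called only on average and with the block, read 5.43 and 6.03 with NC siRNA and PBS, 6.55 and 6.55 with NC siRNA and the drug, 6.70 and 6.99 with SRCAP siRNA and PBS, and 6.72 and 6.66 with SRCAP siRNA and the drug. The NC siRNA PBS arrays were the lowest. The siRNA difference was 1.12 ± 0.25 under PBS (adjusted p = 0.298, and 0.0609 with the block) and 0.14 ± 0.25 under the drug, and the average of 0.63 was called with the block (adjusted p = 0.0281). H2BC4 was not detected on 1 of the NC siRNA PBS arrays.

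The comparison of the drug effect between the 2 siRNAs called no clustered histone probe (0% of all probes were called), with or without the block. At an unadjusted p under 0.05 there were 3 (7.69%, against 2.45% of all), H3C8, H2BC4 and H2BC13. All had a smaller or more negative drug effect with SRCAP siRNA. H2BC13 was detected only on the 2 SRCAP siRNA PBS arrays, so its direction was fixed by the filter and is no support. The median difference over the 39 probes was -0.28, beside 0.04 for all probes, and it ran from -1.27 ± 0.60 (H2AC20) to 0.55 ± 0.53 (H2AC11). Calls that were present with 1 siRNA and absent with the other are therefore not shown to differ.

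Genes that act on histone messages were not called for the drug. Of 15 measured genes for transcription and 3-prime end processing of histone mRNA none was called with either siRNA (median change -0.07 with NC siRNA and -0.03 with SRCAP siRNA). LSM11, a subunit of the U7 snRNP that cuts the 3-prime end, gave -0.49 and -0.48, CPSF2, of the cleavage complex, -0.39 and -0.18, and SRRT, an RNA processing factor, 0.12 and 0.37. NPAT, the coactivator of histone transcription in S phase, gave -0.17 and -0.53, and SLBP, the stem-loop binding protein, -0.19 and -0.03, both named for their role after their values were seen. Among 16 histone chaperones none was called (medians -0.29 and -0.15). CHAF1A and CHAF1B, subunits of the assembly factor CAF-1, gave -0.47 and -0.24, and -0.36 and -0.28, and SSRP1, a subunit of the FACT chaperone, gave -0.37 and -0.35. For the average siRNA effect with the slide as a block, ERI1, an exonuclease acting on histone mRNA (0.94, adjusted p = 0.0151), NCBP2, of the cap-binding complex (0.55, adjusted p = 0.0295), and ATRX, of the H3.3 chaperone complex (0.62, adjusted p = 0.0385), were higher with SRCAP siRNA.

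Of 26 measured genes of S phase and DNA replication none was called for the drug with either siRNA, and MCM5 was called lower for the average of both (adjusted p = 0.0428). Their median change was -0.31 with NC siRNA and -0.26 with SRCAP siRNA, and 24 and 21 of 26 were below 0. MCM5 of the replicative helicase gave -0.52 and -0.85 (adjusted p = 0.582 and 0.139), POLA1, the catalytic subunit of polymerase alpha, -0.66 and -0.84, and RFC4, of the clamp loader, -0.48 and -0.43. For the average siRNA effect with the slide as a block, CDC6, which loads the helicase, was higher (0.49, adjusted p = 0.0446) and GINS2, of the helicase complex, lower (-0.50, adjusted p = 0.0474) with SRCAP siRNA. The part of the cell cycle in the histone values was not tested.

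Of 11 histone genes outside the clusters 1 was called, with a median of 0.00 with NC siRNA and -0.06 with SRCAP siRNA. H2AJ, which encodes a replication-independent H2A, read 7.81 and 8.68 with NC siRNA and PBS, 9.65 and 10.19 after the drug, 7.42 and 8.35 with SRCAP siRNA and PBS, and 8.35 and 8.63 with SRCAP siRNA and the drug. Its change was 1.68 with NC siRNA (adjusted p = 0.0462) and 0.61 with SRCAP siRNA (adjusted p = 0.837), and under the drug it was lower with SRCAP siRNA by 1.43, called with the block (adjusted p = 0.00506). The other 10, among them H2AX, H2AZ1 and CENPA, ran from -0.32 (H3-3B) to 0.19 (H3-3A) with NC siRNA and were not called.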

How the data were processed

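Signals of 71 probes for clustered histone genes were analysed within all 48801 probes of 8 Illumina HumanWG-6 v3 arrays (4 groups of 2). The deposited intensity of a probe, from BeadStudio 3.0.1 according to the submitters' processing notes, is a mean over beads with no background subtraction apparent in the values and no scaling. The deposited detection p-value sets a probe against the negative controls of its array. The authors also deposited a log2 table made by robust spline normalization in lumi, with column medians of 7.44 to 7.45 and low signals possibly compressed, used here as an alternative. The table states no build.

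Of 48805 lines, 2 repeated IDs were left out. Background correction by neqc used those p-values, with an offset of 16 and quantile normalization (limma 3.58.1, R 4.3.3). The 20328 probes detected (p under 0.01) on 2 or more arrays were kept. Symbols came from the platform annotation at GEO, updated through a RefSeq gene table, which matched 27539 probes, and 27576 probes had 1 symbol, 13 several and 21212 none. The methods name SAM with permutations. Few permutations exist for 2 against 2 arrays, so limma was fitted instead to all 8 arrays with 1 coefficient per group (4 residual and 5.83 prior degrees of freedom), with two-sided tests and Benjamini-Hochberg adjustment over all kept probes. The 7 contrasts were the drug effect with each siRNA and its average, the siRNA effect under PBS and under the drug and its average, and the difference between the drug effects. Scripts were tested on simulated data with 200 probes changed.

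Replicate numbers equal the chip given in the labels, so slide was a block in a further fit. Slide differences of a group correlated at 0.711 (NC PBS with NC drug), 0.522 (NC PBS with SRCAP siRNA PBS) and 0.391 (NC drug with SRCAP siRNA PBS), and those of SRCAP siRNA with the drug correlated at 0.00347 to 0.0637 with the others. Replicates correlated at 0.983 to 0.993 over kept probes. Precision is limited by the 2 arrays per group. Where no array of a group detected a probe, the fold is a bound written "at least".

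Genes outside the clusters were named if called, otherwise up to 3 per list by smallest p. Values on every array are given for probes called in any contrast and for the 2 per histone type with the smallest p for the average drug effect. H2AC18, H2AC20, H2BC4, H2BC9, H4C3 and H4C12 were added after their values were seen. The members and lists were chosen with earlier results of these data known. Alternatives were other scalings, offsets and filters, the slide block, the arrays of 1 contrast alone, and leaving out each array. Scaling moved the median of all probes by under 0.1 on the log2 scale.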

Additional observations from a re-analysis of the deposited data

How the results depend on the processing

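Of the drug effects of the named histone probes, and of those called only with the slide block, none that was called without the block reversed. Uncalled ones reversed when arrays were left out, which gave -0.008956 (without PBS replicate 1) to 0.7675 for H1-2 and -0.827 to 0.2265 (without PBS replicate 2) for H2AC20 with SRCAP siRNA. With NC siRNA the ranges were -0.6004 to 0.0895 for H2BC9, -0.8885 to 0.1364 for H4C11 and -0.7742 to 0.01213 for H4C3, each above 0 without PBS replicate 2, and -0.3322 (without PBS replicate 1; -0.045 without drug replicate 2) to 0.6925 for H4C12. With NC siRNA the calls on H2BC5 and on H3C11 or H3C6 held in all alternatives run, whereas that on H3C10 held in 1 of 15, and those on H2AC11 (5 of 14) and H2BC21 (6 of 15) were lost in most. The sizes varied. With NC siRNA the log2 change ran from 0.7594 to 2.551 for H3C11 or H3C6 and from 0.7638 to 2.195 for H2AC11. It ran from 0.5691 to 1.379 for H4C8, from 0.666 to 1.876 for H3C8 and from 0.5301 to 1.281 for H3C10. The median change of the histone probes with NC siRNA was 0.3259 with quantile normalization without background correction, 0.2258 in the authors' table, 0.4485 with an offset of 50 and 0.1075 with no detection filter, and ran from 0.4748 to 0.7774 when arrays were left out. Probes called with NC siRNA numbered 5 in the authors' table, 5 among probes detected on all 8 arrays and 2 in a fit to the arrays of that contrast alone, and 4 to 8 when arrays were left out, with 4 without NC drug replicate 2 and 5 without NC PBS replicate 1. With SRCAP siRNA they numbered 4 with no detection filter, 3 among probes detected on all arrays and 11 with the slide as a replicate block, and 1 to 7 when arrays were left out, with 1 and 2 without drug replicates 1 and 2 and 4 without PBS replicate 2. For the average drug effect the block gave 18 calls (16 higher and 2 lower). For the siRNA effect the block gave 6 calls on average and 7 under the drug, and the fit to those arrays alone gave 3 under the drug. Leaving out arrays gave 0 to 3 calls on average, with 3 without NC PBS replicate 1 and 1 without NC drug replicate 1. Fits added after seeing the data combined the replicate block with other scalings, and gave 7 calls under the drug without background correction and 4 in the authors' table, where H3C8, H4C12 and H4C14 had adjusted p of 0.0522, 0.0551 and 0.0695. With NC siRNA, calls were lost without PBS replicate 1 for H2BC12 (adjusted p = 0.053), H3C8 (0.0524) and H4C8 (0.0919), without PBS replicate 2 for H2AC11 (0.146) and H2BC21 (0.219), without drug replicate 1 for H2AC11 (0.0835) and H2BC21 (0.109), and without drug replicate 2 for H2AC11 (0.0897), H2BC21 (0.161), H3C8 (0.0556) and H4C8 (0.0927). With SRCAP siRNA, calls on H2AC11, H2BC5, H2BC12, H2BC21 and H3C11 or H3C6 were lost without either drug replicate (adjusted p from 0.0712 to 0.273), and that on H4C8 without drug replicate 1 (0.0509). The block changed no call on the difference between drug effects and none under PBS. The causes were not tested. Signals near background, as for H2AC4, H2BC6 and H2BC13, may understate changes.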
